A study of Saccharomyces cerevisiae with 24 samples.

Results

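The 7 budding yeast genes described here are ones whose product limits its own pre-mRNA through the intron. They were taken from the array by their systematic names: RPL30 (YGL030W), RPS14B (YJL191W), RPS9A (YPL081W), RPS9B (YBR189W), RPL22A (YLR061W), YRA1 (YDR381W) and DBP2 (YNL112W). The rule that names them uses no measured value. All 7 had a probe and a value in each of the 24 columns, among 5674 nuclear protein-coding genes used. Of the 213 measured genes on a list of intron genes, 90 code for ribosomal proteins, among them 5 of the 7 genes, and 123 do not, among them YRA1 and DBP2. The genes lie on chromosomes VII, X, XVI, II, XII, IV and XIV, in the order given above, and all names are those of RefSeq assembly R64.

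In these genes the finished protein feeds back on the transcript. Ribosomal protein L30 binds a folded stretch of its own pre-mRNA around the 5' splice site and blocks splicing, and Rps14 binds the RPS14B transcript in a similar loop. Rps9 lowers splicing of the RPS9 pair, and Rpl22 is best known for binding the intron of RPL22B, the paralogue of RPL22A. Yra1, an mRNA export adaptor, and Dbp2, a DEAD-box RNA helicase, come from genes with long introns. Their excess lowers output from those genes, for YRA1 through decay of the unspliced transcript in the cytoplasm. Splicing factors assemble on the nascent transcript, so that crosslinking to chromatin reports which of them are present while the gene is being transcribed.

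The study used chromatin immunoprecipitation on arrays of spotted open reading frames (ChIP-chip), in which DNA bound by 1 tagged protein is hybridised together with DNA of the whole-cell extract. The factors were tagged at the C-terminus at their own loci. Each column holds 1 log2 ratio per gene and combines 2 to 6 biological replicates, so a group is 1 sample. No spread between replicates and no test between groups could be had, and the small number of arrays limits precision. A log2 ratio or a change of 1, a 2-fold difference, served as the threshold for every count.

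The groups that were mutated or treated all carried tagged Prp40, Mud2, Lea1 or Brr2. Prp40-3myc was profiled in spt5_194 cells and in cells given 6-azauracil, an inhibitor of transcription elongation, at 80 ug/ml for 30 minutes, against a Prp40-3myc control, all in SC-URA medium. Prp40-9myc was profiled in a del_cbc strain, without the nuclear cap-binding complex, against the Prp40-9myc profile, both in rich medium. Prp40-9myc and Mud2-13myc extracts were treated with RNase after shortened fixation, against untreated extracts fixed in the same way. Lea1-13myc and Brr2-13myc were profiled in sub2-85 cells, a temperature-sensitive allele of SUB2, against SUB2 wild-type cells, all grown in SC-HIS medium, warmed for 5 minutes and kept at 37 °C for 30 minutes. The 12 profiles of unperturbed cells covered Prp40-9myc, BBP-3HA, Mud2-13myc, Lea1-13myc, Prp11-13myc, Prp5-9myc, Prp2-13myc, Prp19-9myc, Brr2-13myc, Sub2-3HA, Spt5-9myc and RNA polymerase II, for which the labels give no tag. Rich medium and an OD of 0.6 at harvest are given for these profiles, except for BBP, for which no growth conditions were given.

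The labels give Cy5 to the immunoprecipitate and Cy3 to the extract, reversed in at least 1 replicate, but not which of them is on top of the combined ratio. Immunoprecipitate over extract is likely, since the median of ribosomal protein intron genes was above zero in all 11 unperturbed profiles other than Mud2. For Sub2 it was only 0.05, too near zero to give a direction for that profile. Over all probes the Pearson correlation fell below -0.3 for the 6-azauracil and Mud2 columns (-0.34), for the Mud2 RNase and spt5_194 columns (-0.36) and for the Lea1 SUB2 wild-type and Mud2 RNase columns (-0.32). Spearman's rho for these pairs was -0.40, 0.05 and 0.04, so that by rank only the first pair opposes. By Pearson's r the direction of these 5 columns is not settled. Their ribosomal protein intron medians as deposited were 2.26 for Mud2, 0.76 for Lea1 SUB2 wild type and 0.56 for spt5_194. By that sign these columns run like the 11 profiles, and their turned values are the less likely reading. For Mud2 the column without RNase, not among the 5, also had a median above zero, at 1.96. For 6-azauracil and Mud2 RNase the medians were -0.04 and 0.01, too near zero to give a direction. All 5 columns were used as deposited, and the values with a turned sign are given with each comparison. A turned column also runs its ranks from the other end.

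Most spliceosome proteins that act early stood at 1 or more over 5 to 7 of these genes, with BBP the exception at 1, and Prp19, Prp2 and Brr2 over 1 to 4. Column scale differs, with robust SDs of 0.20 for BBP and 0.69 for Mud2, so these counts do not order the factors. Above the 95th percentile of genes without a listed intron stood 7 of 7 for Prp40 and BBP, and 6 for Mud2 and Prp19. Prp2 had 5 and Brr2 4. Among intron genes the median percentile of the 7 was 67.3 for Prp40, 71.4 for BBP and 62.1 for Mud2. It was 77.3 for Prp19, 69.5 for Prp2 and 86.4 for Brr2. Of the 7, 5 are ribosomal protein genes, a class with higher medians than other intron genes in these 6 profiles. The median of the 7 was 1.87 against 2.14 in that class for Prp40, 0.84 against 0.95 for BBP and 2.00 against 2.26 for Mud2. It was 1.05 against 0.89 for Prp19, 0.84 against 0.93 for Prp2 and 0.73 against 0.37 for Brr2. Prp40, a U1 snRNP protein that meets the 5' splice site, stood at 1 or more over 6 of 7 genes, against 3.39% of all genes. For BBP, which binds the branch point, the count was 1 of 7 against 1.04% of all genes, with RPL22A just under the threshold at 0.9998, and for its partner Mud2 it was 7 of 7 against 12%. The U2 snRNP proteins Lea1 and Prp11 reached the threshold over 6 and 5 genes, against 3.28% and 1.08% of all genes. Prp5, an ATPase needed for stable binding of the U2 snRNP, reached it over 5, against 1.24%.

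Among proteins that act at activation of the spliceosome, Prp19 passed the threshold over 4 of 7 genes and the ATPase Prp2 over 3 of 7, against 2.13% and 3.81% of all genes. Brr2, a helicase of the U5 snRNP that separates the U4 and U6 RNAs, passed over 1 of 7, against 3.1%. Sub2, a DEAD-box helicase of splicing and export, passed over 0 of 7, against 4.2%. The elongation factor Spt5 passed over 7 of 7 and RNA polymerase II over 5 of 7, against 6.79% and 8.51% of all genes. Many intron genes do the same: 59.2% of them passed for Prp40, 54.0% for Lea1, 46.4% for Spt5 and 5.2% for Brr2. With the sign of the Mud2 column turned, 0 of 7 genes pass for Mud2.

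**Figure D1:**
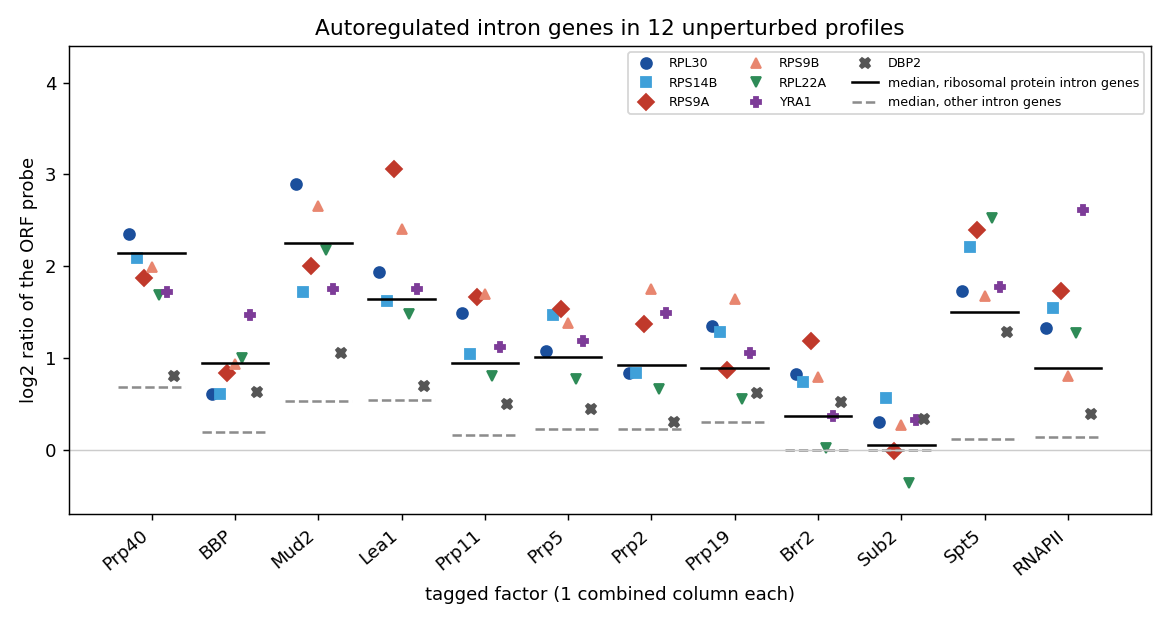
Log2 ratio of the ORF probe (vertical axis) of the 7 genes in 12 unperturbed profiles (horizontal axis, 1 combined column each, RNAPII being RNA polymerase II). Solid lines are medians of 90 ribosomal protein intron genes and dashed lines those of 123 other intron genes. RPS9A stands highest for Lea1 at 3.06, YRA1 for RNA polymerase II at 2.61, and DBP2 is the lowest of the 7 in 8 profiles.

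RPL30, which codes for a protein of the large ribosomal subunit, had log2 ratios of 2.35 for Prp40, 0.61 for BBP and 2.90 for Mud2. Lea1 stood at 1.93, Prp11 at 1.49 and Prp5 at 1.08. Prp19, Prp2 and Brr2 had 1.35, 0.84 and 0.82, Sub2 0.31, Spt5 1.73 and RNA polymerase II 1.33. All factors but Sub2 and BBP stood above 0.8, with Mud2 and Prp40 at the top and BBP low for a ribosomal protein intron gene. BBP placed RPL30 at rank 79 of 90 ribosomal protein intron genes, where Prp11 placed it at 8, Brr2 at 11, RNA polymerase II at 12, Mud2 at 13 and Prp40 at 28. RPL24A, a ribosomal protein gene with no intron on the list, lies on one side of RPL30 and had 2.45 for Prp40, and its part in the RPL30 value was not tested.

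RPS14B, the minor of the paired genes for Rps14, had 2.09 for Prp40, 0.61 for BBP and 1.71 for Mud2. Lea1, Prp11 and Prp5 stood at 1.62, 1.04 and 1.46. Values for Prp19, Prp2 and Brr2 were 1.28, 0.84 and 0.73, for Sub2 0.56, Spt5 2.21 and RNA polymerase II 1.55. RPS14B ranked high for the polymerase, Spt5 and Prp5, with rank 4 of 90 ribosomal protein intron genes for RNA polymerase II, 5 for Spt5 and 7 for Prp5. The branch point proteins placed it near the other end, with rank 80 for BBP and 77 for Mud2. The neighbouring RPS22A, a ribosomal protein gene with no intron on the list, had 1.66 for Prp40 and 1.34 for RNA polymerase II. RPS14A, the paralogue, was not analysed here.

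RPS9A codes for a protein of the small ribosomal subunit and stood at 1.87 for Prp40, 0.84 for BBP and 2.00 for Mud2. Its Lea1 value of 3.06 was rank 1 of 211 intron genes and rank 6 of all genes. Prp11 had 1.66 and Prp5 1.54. Prp19, Prp2 and Brr2 stood at 0.87, 1.37 and 1.18, Sub2 at -0.01, Spt5 at 2.40 and RNA polymerase II at 1.73. RPS9A thus combined high polymerase and Spt5, each at rank 2 of the ribosomal protein intron genes, with high Lea1 and the only Brr2 value past 1 among the 7 genes. The next probe along the chromosome, YPL080C, had 1.93 for Lea1 and 1.22 for RNA polymerase II.

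RPS9B, the paralogue, had 2.00 for Prp40, 0.93 for BBP and 2.66 for Mud2. Lea1 stood at 2.40, Prp11 at 1.69 and Prp5 at 1.39. Prp19, Prp2 and Brr2 had 1.64, 1.75 and 0.79, Sub2 0.27, Spt5 1.67 and RNA polymerase II 0.80. RPS9B stood at rank 57 of 90 ribosomal protein intron genes for RNA polymerase II, yet at rank 4 for Prp2, 5 for Prp11 and 14 for Prp19. The neighbour RPL21A is itself a ribosomal protein intron gene, with 1.97 for Prp40 and 1.83 for Lea1.

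RPL22A codes for a protein of the large subunit and had 1.68 for Prp40, 0.9998 for BBP and 2.18 for Mud2. Lea1, Prp11 and Prp5 stood at 1.48, 0.80 and 0.77. Among later factors Prp19, Prp2 and Brr2 had 0.55, 0.66 and 0.02, Sub2 -0.36, Spt5 2.52 and RNA polymerase II 1.27. This was the gene with the highest Spt5 value of all 211 intron genes and with the lowest Brr2, Prp19 and Sub2 values of the 7. Among ribosomal protein intron genes its Brr2 value ranked 85 of 90 and its Prp40 value 78 of 90, against rank 15 for RNA polymerase II. RPL22B, on whose intron Rpl22 acts, was not analysed here.

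YRA1 had 1.71 for Prp40, 1.46 for BBP and 1.75 for Mud2. Lea1, Prp11 and Prp5 stood at 1.75, 1.12 and 1.18. Prp19, Prp2 and Brr2 had 1.05, 1.48 and 0.37, Sub2 0.32, Spt5 1.78 and RNA polymerase II 2.61. Among intron genes outside the ribosomal protein group it held rank 1 for BBP and for RNA polymerase II, 4 for Spt5, 5 for Prp2, 6 for Lea1 and Prp5 and 8 for Prp40 and Prp11. Over all intron genes the polymerase value was rank 2 of 213 while Prp40 was rank 84 of 211. ARO10, a neighbour with no intron on the list, had 1.22 for RNA polymerase II and 0.16 for Prp40.

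DBP2 was the lowest of the 7 in 8 of the 12 profiles, BBP, Prp19, Brr2 and Sub2 being the exceptions. It had 0.80 for Prp40, 0.63 for BBP and 1.05 for Mud2. Lea1, Prp11 and Prp5 stood at 0.70, 0.50 and 0.44. Prp19, Prp2 and Brr2 had 0.62, 0.30 and 0.52, Sub2 0.34, Spt5 1.29 and RNA polymerase II 0.38. Within intron genes outside the ribosomal protein group its ranks differed by factor. BBP placed it at 11 and Brr2 at 18 of 123, and Prp11 at 16, Prp5 at 33 and Prp19 at 39 of 121. Mud2 placed it at 43, Lea1 at 51 and Prp40 at 56 of 121, and Prp2 at 54 of 123. Spt5 ranked it 9 of 121, while RNA polymerase II stood at 41 of 123. The neighbouring CYB5 had 1.43 for RNA polymerase II, more than DBP2 itself.

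Fewer cells with a factor bound and less of it per bound gene cannot be told apart in such columns, and a short gene may carry signal from its neighbours. From high to low, RNA polymerase II ran YRA1, RPS9A, RPS14B, RPL30, RPL22A, RPS9B and DBP2. Prp40 ran RPL30, RPS14B, RPS9B, RPS9A, YRA1, RPL22A and DBP2. Neighbours in the Prp40 order from RPL30 to RPL22A were within 0.26 of each other. In the Prp40-9myc column with shortened fixation and no RNase the order differed. It ran RPL30, RPS9A, YRA1, RPL22A, RPS14B, RPS9B and DBP2.

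**Figure D2:**
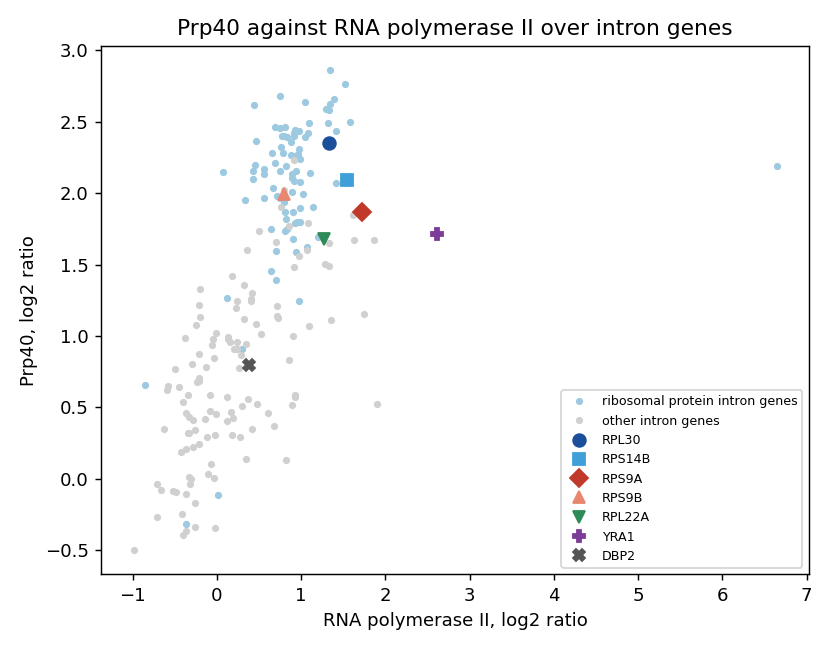
Prp40 (vertical axis, log2 ratio) against RNA polymerase II (horizontal axis, log2 ratio) for the intron genes with both values, 1 point per gene, with the 7 genes marked. YRA1, at 2.61 for the polymerase, lies to the right of genes with a like Prp40 value of 1.71, and RPS9B, at 0.80 for the polymerase, has 2.00 for Prp40.

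How far a value moves between experiments can be read from columns of 1 factor in cells with no mutation or drug. Prp40 has 3 such columns, with 9myc in rich medium, 3myc in SC-URA medium and 9myc with shortened fixation. Their ribosomal protein intron medians were 2.14, 0.50 and 2.47, so the 3myc column widens the range. The range over these 3 was 2.29 for RPL30, 2.02 for RPS9A, 1.69 for RPL22A, 1.36 for YRA1, 1.16 for RPS9B, 0.70 for RPS14B and 0.54 for DBP2, and the median over intron genes was 1.51. For Mud2, 2 columns differed by 1.24 for RPS9B and 1.04 for YRA1, and by 0.01 to 0.39 for the other 5 genes. For Lea1 the gap between 37 °C and rich medium was 2.15 for YRA1, 2.10 for RPS9A and 2.01 for RPS9B, and 0.02 for DBP2. With the Mud2 profile turned its gaps are 2.17 to 5.40, and with the Lea1 wild-type column turned those of Lea1 are 1.36 to 4.02. For Brr2 the gap was between 0.16 for DBP2 and 1.44 for RPL30. These ranges include changes of tag, medium, fixation and temperature, and they are the only yardstick here for the differences below.

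Early and late binding were set against each other by a difference of means. The early mean is over Mud2, Prp40 and BBP and the late mean over Prp19, Brr2 and Prp2, after the median of genes without a listed intron was taken off each column. This early minus late contrast was 1.30 for RPL22A, 1.04 for RPL30, 0.76 for YRA1, 0.61 for RPS14B, 0.56 for RPS9B, 0.52 for RPS9A and 0.44 for DBP2. All 7 values were above zero, as were those of 188 of 211 intron genes. The median over the 7 genes was 0.61, against 0.62 over intron genes, 1.12 over ribosomal protein intron genes and 0.38 over other intron genes. With Mud2 turned the median is -0.64 and all 7 values lie below zero.

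RPS9A, RPS9B and RPS14B had ranks 75, 74 and 72 of 90 ribosomal protein intron genes, and RPL30 and RPL22A had 53 and 33. YRA1 and DBP2 had ranks 23 and 53 of 121 other intron genes. The late mean was 1.13 for RPS9A and 1.38 for RPS9B, against 0.40 for RPL22A and 0.99 for RPL30. Their early means were 1.65 and 1.94, close to 1.70 for RPL22A and 2.03 for RPL30. With quantile normalised columns RPS9A, RPS9B and RPS14B had values of 0.13, 0.17 and 0.15. Without Mud2, RPS9B had 0.11, and without BBP RPL30 had 1.74.

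**Figure D3:**
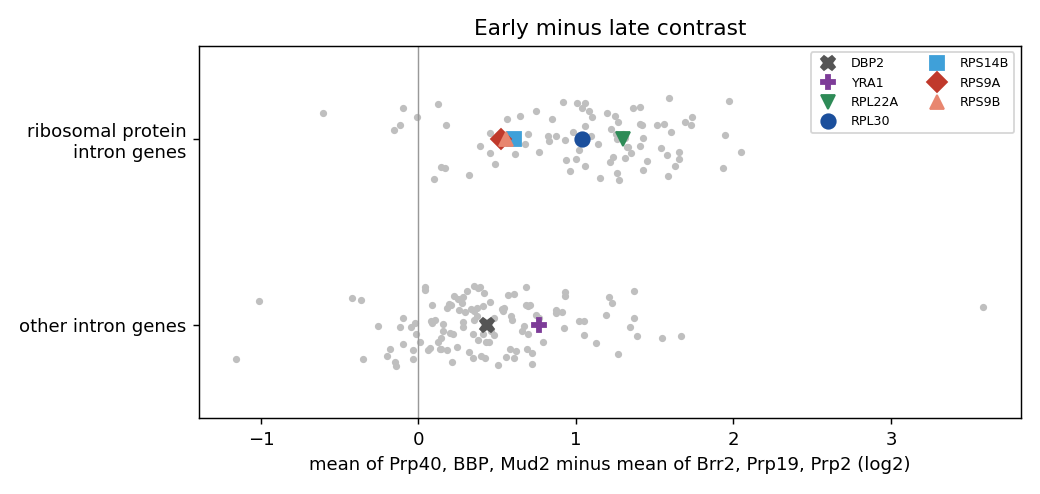
Early minus late contrast in log2 units (horizontal axis) for 90 ribosomal protein and 121 other intron genes (rows), 1 point per gene, spread vertically for legibility, with the 7 genes marked. RPL22A at 1.30 and RPL30 at 1.04 lie to the right of RPS9A, RPS9B and RPS14B, which lie between 0.52 and 0.61.

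The RPS9 paralogues, whose proteins act on the same pair of transcripts, differed by a measured gap in some columns. RPS9A was the higher in 13 of 24 columns and RPS9B in 11. Over the 19 columns outside the 5 with a correlation below -0.3 the counts were 9 and 10. With those 5 turned they are 10 and 14 of 24. The gap exceeded 0.5 in 7 columns. RPS9A exceeded RPS9B by 1.22 for Prp40 without RNase, by 0.93 for RNA polymerase II, by 0.72 for Spt5, by 0.66 for Lea1 and by 0.57 for Lea1 in SUB2 wild type. RPS9B stood higher for Prp19, at 1.64 against 0.87, and for Mud2, at 2.66 against 2.00. The median absolute gap of 0.37 was rank 35 of 39 ribosomal protein intron pairs counted from the most alike, and the median over those pairs was 0.20. Probes of near-identical paralogues can each bind DNA of both genes, which would bring their values together, and this was not tested.

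**Figure D4:**
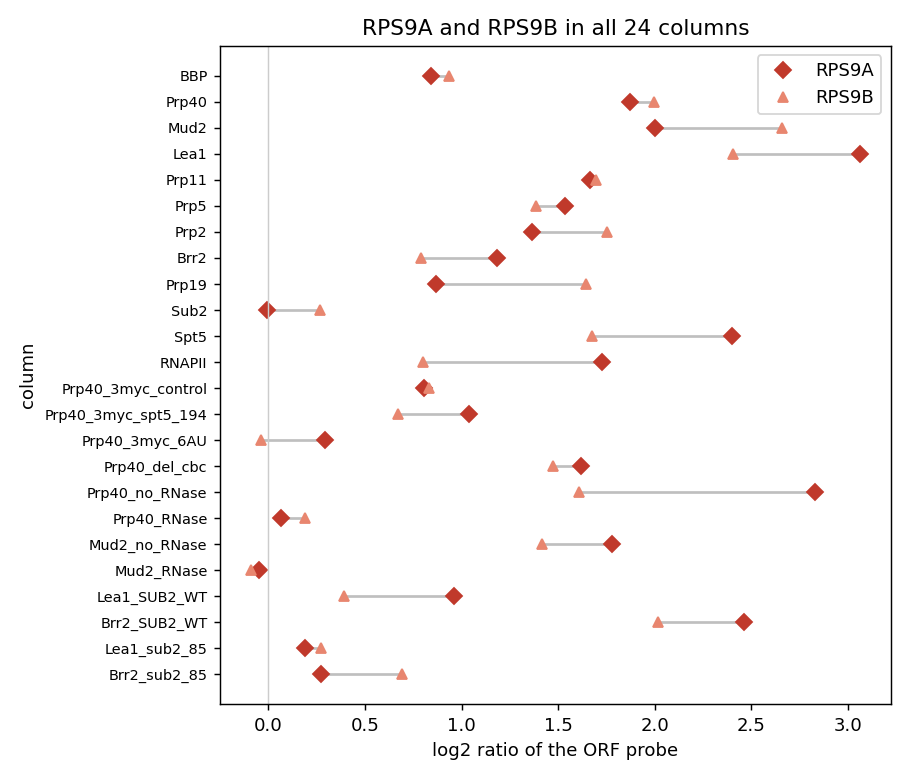
Log2 ratio (horizontal axis) of RPS9A (diamonds) and RPS9B (triangles) in each of 24 columns (vertical axis), joined by a line. The longest gap is 1.22, for Prp40 without RNase, where RPS9A stands at 2.83 and RPS9B at 1.60.

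Likeness of pattern was measured by Pearson's r over the 12 unperturbed profiles, with each column centred and divided by its robust SD, among 5579 genes. RPL30 was most like RPL23A (0.96), RPS6B (0.95) and RPL13B (0.94), and RPS9B most like RPL19B (0.98), RPS6A and RPS6B (0.96 each). RPL22A was nearest to RPL17B (0.94), RPL33B (0.93) and RPS7A (0.92). RPS14B was nearest to UBC4 (0.93), RPL23A (0.92) and YER158C (0.91), and RPS9A to TEF4 (0.95), HEM14 and RPS8B (0.92 each). YRA1 was nearest to RPL34A (0.89) and RPL40A (0.88), and DBP2 to RPL28, RPS0B (0.89 each) and RPS25B (0.88). Most of these genes code for ribosomal proteins, and none is among the 7. Between the 7 genes r ran from 0.70, for DBP2 with YRA1, to 0.92, for RPL30 with RPS9B. Points within a column share arrays, and the Mud2 profile enters as deposited.

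Of the 7 comparisons as deposited, those with RNase had the largest median changes over these genes. Prp40 fell by 1 or more over 6 of 7 genes, against 4.79% of all genes, and over 68.1% of intron genes; 0.194% of all genes and 0 of 7 rose that far. RPL30 stood at 0.19 with RNase and 3.06 without, RPS9A at 0.06 and 2.83, and YRA1 at -0.05 and 2.57. RPL22A had 0.35 with RNase and 2.24 without, RPS14B 0.01 and 2.05, and RPS9B 0.19 and 1.60. DBP2 stood at 0.06 with RNase and 1.05 without, a change of -0.99. The changes of RPL30, RPS9A and YRA1 amount to 7.27-fold, 6.80-fold and 6.13-fold less Prp40 signal with RNase. All 7 values with RNase lay below every unperturbed Prp40 column, which held for 19% of all genes. The column with RNase is narrow, with a robust SD of 0.09 against 0.23 without. In it 3 of 7 genes still stood above the 95th percentile of genes without a listed intron. RPL22A was rank 6 of 213 intron genes and rank 39 of 5674 genes there.

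Mud2 fell likewise with RNase, with a fall of 1 or more over 7 of 7 genes, against 3.7% of all genes, and over 51.2% of intron genes; 1.02% of all genes and 0 of 7 rose that far. YRA1 stood at 0.17 with RNase and 2.79 without, a change of -2.62 that was rank 5 of 213 intron genes from the most negative and rank 2 outside the ribosomal protein group. RPL30 had 0.04 and 2.50, RPL22A -0.09 and 1.79, and RPS9A -0.05 and 1.78. RPS14B had 0.17 with RNase and 1.70 without, RPS9B -0.09 and 1.42, and DBP2 0.09 and 1.12. Again all 7 values with RNase were below every unperturbed Mud2 column, as for 21.4% of all genes. Above the 95th percentile of genes without a listed intron stood 0 of 7 with RNase. With the Mud2 profile turned, 0 of 7 lie below both. With the Mud2 RNase column turned the count of falls is 7 of 7 as well, and YRA1 changes by -2.96. Median changes over the 7 genes were -2.04 for Prp40 and -1.82 for Mud2, against 0.10 and 0.06 over all genes and -2.35 and -1.96 over ribosomal protein intron genes. With quantile normalised columns the Prp40 median is -1.11.

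**Figure D5:**
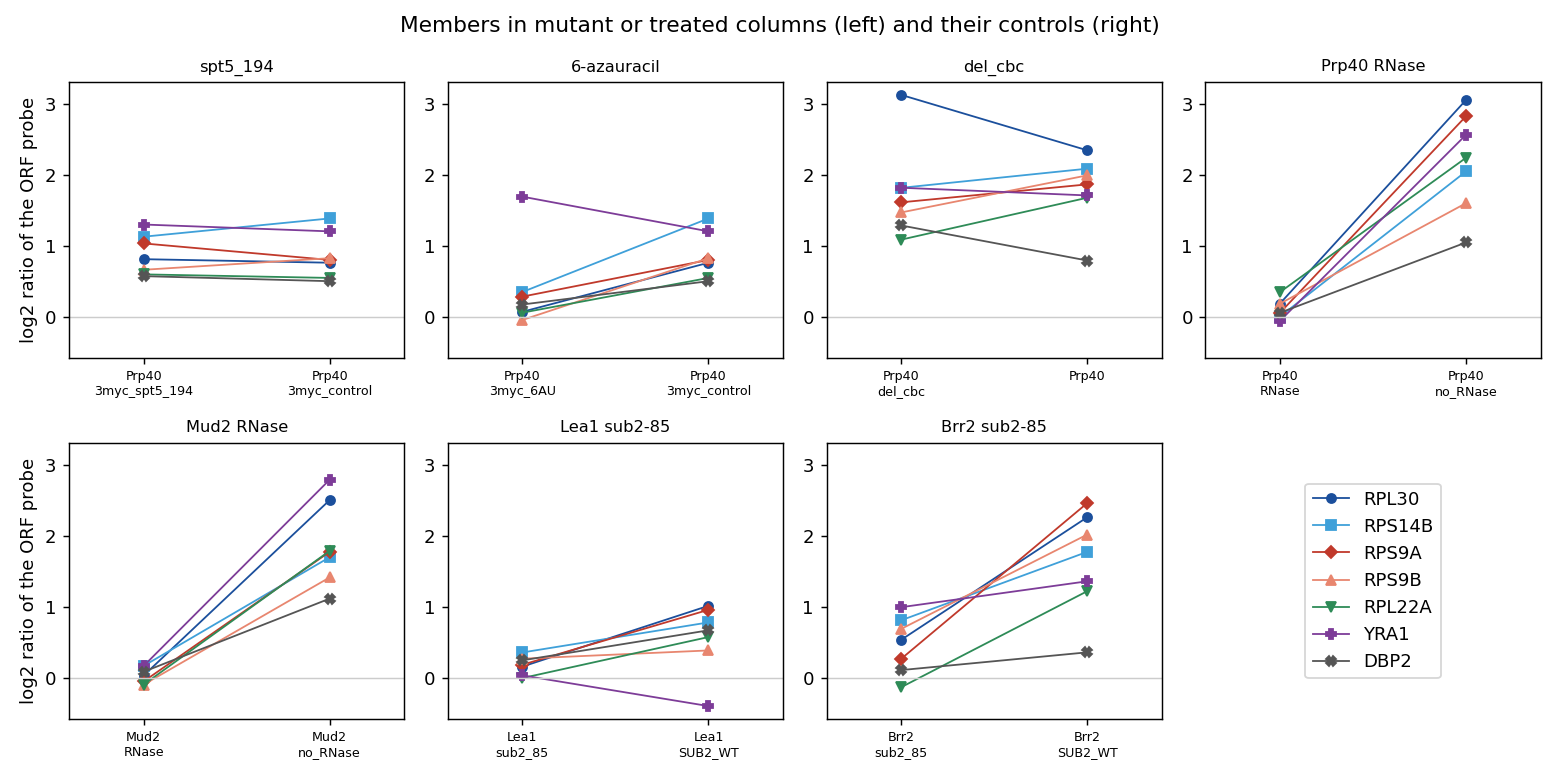
Log2 ratio (vertical axis) of the 7 genes in 7 comparisons, 1 panel each, with the mutant or treated column left and its control right, joined by a line per gene. With RNase all 7 genes stand between -0.09 and 0.35, in columns with robust SDs of 0.09 for Prp40 and 0.10 for Mud2. YRA1 is the only gene that stands higher with 6-azauracil, at 1.70 against 1.21.

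The drug 6-azauracil and the spt5_194 allele were compared with the same Prp40-3myc control, so that their changes are not independent. With the drug, Prp40 fell by 1 or more over 1 of 7 genes, against 0.705% of all genes, and rose that far over 0 of 7, against 0.881%. RPS14B stood at 0.36 with 6-azauracil and 1.39 in the control, RPS9B at -0.04 and 0.83, and RPL30 at 0.08 and 0.77. RPS9A had 0.29 and 0.81, RPL22A 0.07 and 0.55, and DBP2 0.18 and 0.51. These 6 genes lay below every unperturbed Prp40 column, which held for 27.2% of all genes, and with the drug column turned all 7 do.

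YRA1 was the exception. It stood at 1.70 with 6-azauracil and 1.21 in the control, and its level with the drug was rank 2 of 213 intron genes and rank 10 of all genes. Its change of 0.49 was rank 3 of 213 intron genes from the highest. That change was smaller than the range of 1.36 between unperturbed Prp40 columns. Those columns differ in tag, medium and fixation, whereas the drug column and its control share tag and medium. The median change of the 7 genes was -0.52, against 0.04 over all genes and -0.56 over ribosomal protein intron genes. Turned, the 6-azauracil column gives a median change of -0.85 and 3 falls past 1, with YRA1 at -2.91. Against the Prp40-9myc profile as control the median is -1.62, with 5 falls, but tag and medium differ there too. That profile has a ribosomal protein intron median of 2.14, against 0.50 in the Prp40-3myc control. With quantile normalised columns the median change is -0.96, with 3 falls and 1 rise.

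In spt5_194 cells, which carry a mutant form of the elongation factor, Prp40 kept close to its control over these genes. The 7 changes lay between -0.26 and 0.23, with 0 of 7 past 1 in either direction, against 2.2% of all genes for a fall and 0.705% for a rise. YRA1 had 1.30 in spt5_194 and 1.21 in the control, RPS14B 1.13 and 1.39, and RPS9A 1.04 and 0.81. RPL30 stood at 0.82 and 0.77, RPS9B at 0.67 and 0.83, RPL22A at 0.60 and 0.55, and DBP2 at 0.58 and 0.51. RPS14B and RPS9B were below every unperturbed Prp40 column, as were 13.8% of all genes. Turned, the spt5_194 column puts all 7 genes below every unperturbed Prp40 column and all 7 changes past -1, with a median of -1.59. Against the Prp40-9myc profile the median is -0.96 with 3 falls, where tag and medium differ too.

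Without the cap-binding complex, which binds the cap of nascent transcripts, Prp40 moved in both directions. No gene of the 7 passed 1 either way, against 0.763% of all genes for a fall and 0.0887% for a rise. RPL30 stood at 3.13 in del_cbc cells and 2.35 in the profile, a change of 0.78 that was the second most positive of 211 intron genes and rank 11 of all genes. DBP2 had 1.29 and 0.80, and YRA1 1.82 and 1.71. Lower values in del_cbc cells were seen for RPL22A at 1.09 against 1.68, RPS9B at 1.47 against 2.00, RPS14B at 1.82 against 2.09 and RPS9A at 1.62 against 1.87. All 7 changes were within the range between unperturbed Prp40 columns of that gene. Below all of these columns lay 0 of 7 genes, against 26.3% of all genes. RPL30 and DBP2 lay above all of them, as did 15.1% of all genes. Both the range and the count below include the Prp40-3myc control, with a low ribosomal protein intron median of 0.50. That median was 2.14 in the Prp40-9myc profile and 2.47 with shortened fixation. RPL22A, RPS9B, RPS14B and RPS9A lay below both 9myc columns, with 2.24, 1.60, 2.05 and 2.83 after shortened fixation. The share of all genes below both was not counted. RPL30 with shortened fixation reached 3.06, close to its level in del_cbc cells. Against that column as control 2 of 7 genes fall past 1.

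The sub2-85 allele was examined with Lea1 and Brr2 at 37 °C. Brr2 fell by 1 or more over 4 of 7 genes, against 2.61% of all genes, and over 28.2% of intron genes; 2.03% of all genes and 0 of 7 rose that far. RPS9A stood at 0.27 in sub2-85 cells and 2.46 in SUB2 wild type, the most negative change of 213 intron genes at -2.19. RPL30 had 0.54 and 2.26, RPL22A -0.13 and 1.22, and RPS9B 0.69 and 2.02. The other 3 genes changed by less, with RPS14B at 0.81 in sub2-85 and 1.77 in wild type, YRA1 at 1.00 and 1.36, and DBP2 at 0.11 and 0.36. All genes but YRA1 and RPS14B, 5 of 7, lay below every unperturbed Brr2 column, as did 36.1% of all genes. Against the Brr2 profile in rich medium none of the 7 falls past 1, with a median of -0.15 in place of -1.33.

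Lea1 changed by less than 1 over each of the 7 genes in sub2-85 cells, against 0.335% of all genes with a fall and 1.08% with a rise past 1. RPL30 had 0.16 in sub2-85 and 1.02 in wild type, RPS9A 0.19 and 0.96, RPL22A 0.00 and 0.58, and RPS14B 0.36 and 0.78. DBP2 stood at 0.25 and 0.67 and RPS9B at 0.27 and 0.39. YRA1 alone was higher in sub2-85, at 0.04 against -0.39. That wild-type value placed YRA1 at rank 204 of 213 intron genes, where the Lea1 profile in rich medium had 1.75 and rank 42 of 211. All 7 genes except YRA1 lay below both unperturbed Lea1 columns, as did 27.3% of all genes, and with the wild-type column turned 1 of 7 does. Turned, the Lea1 wild-type column gives a median change of 0.92 and 3 rises past 1 in place of a median of -0.42, and against the rich-medium profile the median is -1.71 with 6 falls.

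Other genes with reported control through an intron gave a mixed picture. Of 15 listed, 12 were measured. Prp40 stood at 1 or more over 5 of them, against 3.39% of all genes, and Lea1 over 3, against 3.28%. Brr2 did so over 0, against 3.1%, and Mud2 over 5, against 12%, or 0 with its sign turned. RPL18B, whose pre-mRNA is open to decay, had 2.59 for Prp40 and 3.18 for Mud2. RPL28, whose unspliced RNA is a classic substrate of nonsense-mediated decay, had 2.49 for Prp40. RPS22B, which hosts a snoRNA, reached 4.15 for Mud2, and MTR2, coding for an export receptor subunit, had 1.13 for Prp40. The list median for Prp40 was 0.35, against 1.87 for the 7 genes, and the list includes meiotic genes such as HFM1. With RNase, Prp40 fell past 1 over 5 of the 12, against 4.79% of all genes and 68.1% of intron genes. Mud2 did so over 4, against 3.7% and 51.2%. Brr2 fell that far over 2 in sub2-85 cells, against 2.61% of all genes and 28.2% of intron genes. These were HFM1, with a change of -1.90, and RPL28, with -1.28. HFM1 had 2.55 for Brr2 in SUB2 wild type but -0.24 in rich medium, and for Lea1 2.16 and 0.19. In spt5_194 cells HFM1 changed by -1.96. RPL28 changed by -1.02 with 6-azauracil, where 1 of the 12 fell that far, against 0.705% of all genes.

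Export and decay factors that work with Yra1 or Dbp2 formed a second list of 15 genes, all measured. Prp40, Lea1, Spt5 and RNA polymerase II reached 1 over 0 of the 15, against 3.39%, 3.28%, 6.79% and 8.51% of all genes. With 15 genes, 0 is near those shares. Mud2 did so over 3, UPF3 at 2.42, TEX1 at 2.30 and CRM1 at 1.91, against 12% of all genes, and over 0 with its sign turned. The medians were -0.01 for Prp40 and -0.04 for RNA polymerase II. Of this list only NMD2 is on the list of intron genes. Its probe varied widely between columns. NMD2 had 4.05 for Mud2 without RNase but 0.41 in the Mud2 profile, and changed by -4.41 with RNase. It sat at the lower limit of the scale, -6.64, for Lea1 in SUB2 wild type, and at 0.00 for Lea1 in sub2-85. Brr2 had 0.00 in SUB2 wild type and 2.47 in sub2-85, and Prp40 had -2.21 in spt5_194.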

How the data were processed

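Per the labels' protocols, immunoprecipitate and whole-cell extract DNA was amplified by linker-mediated PCR, labelled with opposite dyes (swapped in at least 1 replicate), hybridised to spotted ORF arrays and scanned; Rosetta Resolver combined the replicates, per the submitters' design text. The deposited values are log2 ratios per probe, limited to 6.64 in size (the log2 of 100) in 18 of 24 columns; the sources used here do not give direction, centring or normalisation. Column medians over genes ran from -0.14 to 0.05 and robust SDs from 0.09 to 0.69.

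Of 6284 probes, 5674 matched a nuclear protein-coding gene of RefSeq R64, and 610 were not used. Intron genes (227 listed, 213 measured) come from a list written from memory, because the reference gives no exons; 5414 genes off the list with a span in whole codons counted as intronless, and 47 were in neither class. The 7 genes, the lists, the contrast and the alternatives were chosen with earlier results of these data known. Genes named are the 7, the 3 most like each, their neighbours and paralogues, and members of both fixed lists whose value or change passes 1 in size. Of these, 1 gene is not reported here. Values, differences and ranks were computed with pandas 2.3.3 in Python 3.11.15, and the scripts were tested on simulated data. With 1 combined column per group no test was made. Alternatives were quantile normalisation, centring, scaling by the robust SD, another threshold, other controls, other factors and turned signs.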

Additional observations from a re-analysis of the deposited data

Results flagged for a closer look

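Opposite movement of a pair of factors under the same contrast was looked for, with 1 column per group, and none of the differences was tested. In sub2-85 relative to SUB2 wild type, YRA1 changed by 0.43 for Lea1 and by -0.36 for Brr2. With the Lea1 wild-type column turned, its direction being unsettled, the Lea1 change is -0.35 and no longer opposes. At 37 °C relative to rich medium, where medium and SUB2 strain also differ, Lea1 was lower and Brr2 higher over 6 genes. The Lea1 and Brr2 differences were -0.92 and 1.44 for RPL30, -0.84 and 1.04 for RPS14B, -2.10 and 1.28 for RPS9A, -2.01 and 1.23 for RPS9B, -0.90 and 1.20 for RPL22A, and -2.15 and 0.99 for YRA1. With that Lea1 column turned the Lea1 differences of these genes keep their sign, at -4.02 to -1.36. The same shift is seen over ribosomal protein intron genes at large, with medians of 0.76 at 37 °C and 1.64 in rich medium for Lea1, and 1.48 and 0.37 for Brr2. With shortened relative to standard fixation, Prp40 was higher and Mud2 lower over 3 genes. These differences were 0.71 and -0.39 for RPL30, 0.96 and -0.22 for RPS9A, and 0.56 and -0.39 for RPL22A. With the Mud2 profile turned, the Mud2 differences are 5.40, 3.78 and 3.97 and no longer oppose those of Prp40. RNase moved no gene of the 7 in opposite directions for Prp40 and Mud2.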

How the results depend on the processing

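No paired analysis was possible because each group is 1 combined column, and for the same reason no replicate could be left out. A comparison of intron definitions from protein lengths was not run, since the reference holds no proteins. Counts at 1 or more moved by over 1.5 times in 5 profiles. BBP had 1 gene as deposited, 5 with quantile normalisation, 2 with centring and 7 above the 95th percentile of intronless genes; at that percentile Prp2 had 5 and Brr2 4, in place of 3 and 1. Mud2 had 2 with quantile normalisation and 0 turned, in place of 7, and RNA polymerase II had 2 in place of 5.

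Quantile normalisation gave median changes of -0.96 for 6-azauracil (3 falls, 1 rise), -0.13 for del_cbc (1 rise) and -1.11 for Prp40 with RNase, and 3 falls for Lea1 in sub2-85. Another control column gave -0.96 for spt5_194 (3 falls), -1.62 for 6-azauracil (5 falls), 2 falls for del_cbc, -1.71 for Lea1 in sub2-85 (6 falls) and -0.15 for Brr2 in sub2-85 (0 falls). Turned columns gave -1.59 for spt5_194 (7 falls), -0.85 for 6-azauracil (3 falls) and 0.92 for Lea1 in sub2-85 (3 rises). The median contrast of 0.61 was 0.28 with quantile normalisation, 1.92 in robust SD units, 1.06 without BBP and -0.64 with Mud2 turned, where RPL30 had -1.01 and RPL22A -0.27. The cause of these shifts was not tested. The turned Mud2 count, the turned columns in the RPS9 counts, the unperturbed ranges and the contrasts of fixation and temperature, the intron class restricted by gene span and the comparison with all unperturbed columns were chosen after seeing the data. Of 122 alternative values for counts, median changes and the median contrast, 88 stayed within 1.5 times of the deposited value or, for medians, within 0.1 of its size. Many of these 88 are counts of 0 that stayed at 0, such as most counts of rises, so the total overstates stability. Choices of scale, control and sign were the ones tried; signal over background was not analysed here.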
